A study of Mus musculus with 12 samples.

Results

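The transcriptome of HT22 cells that were depleted of NCOA4 and deprived of iron at the same time was compared with that of control cells. HT22 is an immortalized neuronal line that derives from mouse hippocampus. The 3 siNCOA4 plus DFO libraries come from cells that were transfected with siRNA against Ncoa4 and treated with the iron chelator desferrioxamine (DFO) at 100 µM for 24 h. The 3 siControl libraries come from cells that received control siRNA and no DFO. These 6 of the 12 libraries of the series were selected by their labels. The other 6 were used to see where the combination differs from either treatment given singly: 3 libraries of cells with Ncoa4 siRNA and no DFO (siNCOA4) and 3 of cells with control siRNA and DFO (called DFO alone here). Expression was measured by RNA-seq and is given in FPKM, fragments scaled to transcript length and to the mapped total of the library, which makes levels comparable between genes of unequal length. Of 24343 genes, 11476 had 0.5 FPKM or more in at least 3 of the 6 compared libraries and were tested. Changes are differences in log2(FPKM + 0.1) between group means, tested with limma and adjusted over all genes tested by the Benjamini-Hochberg method. A gene is "called" when its fold change exceeded 2 and its adjusted p was below 0.05. The added 0.1 understates the changes of weakly expressed genes.

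Cells keep spare iron inside ferritin, a hollow protein shell, and NCOA4 is the receptor that delivers ferritin to autophagosomes so that lysosomes can break it down and release the iron, a route called ferritinophagy. DFO does not readily cross the cell membrane and withholds iron from uptake by binding it outside the cell. With both in place, import and release from stores are restricted together. Iron is a cofactor of prolyl hydroxylases that mark hypoxia-inducible factor (HIF) for destruction, of ribonucleotide reductase, which makes DNA precursors, and of the respiratory chain, so that transcripts under HIF, p53 and cell cycle control are commonly followed in iron-starved cells.

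Sequencing depth could not be read as a total count, since FPKM holds none. Relative depth, taken from the steps between low values with siControl replicate 1 set to 1, was 1.00 to 1.26 in siControl and 0.928 to 1.20 in siNCOA4 plus DFO. Small RNA genes held between 33.1 and 34.4% of the summed FPKM in siControl and between 43.9 and 47.7% in siNCOA4 plus DFO. Between 11207 and 11224 genes reached 0.5 FPKM in siControl libraries and between 11531 and 11602 in siNCOA4 plus DFO. Replicate 3 of siNCOA4 plus DFO stood somewhat apart. It correlated with the other replicates of its group at 0.937 and 0.944 across genes, and these with each other at 0.960. It was the library nearest to siControl for 684 of the 1023 genes called higher and 403 of the 695 called lower, and without it 1867 genes were called in place of 1718. Of 14 markers of mature neurons, 2 passed the filter on low values (Eno2 was 1 of them), and of 10 markers of fibroblasts and mesenchyme 8 did, Col1a1, Col1a2 and S100a4 among them. In bulk RNA, fewer cells of a type and less RNA per cell cannot be told apart.

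Ncoa4, the siRNA target, was examined first. It lies on chromosome 14 between bases 32159865 and 32179855 (mm10). The siControl libraries, replicates 1 to 3, held 6.46, 6.19 and 6.02 FPKM and those of siNCOA4 plus DFO 0.850, 1.29 and 1.57, so that the groups did not overlap. It fell by 2.28 log2 units (standard error 0.21, adjusted p = 2.70e-06). An exact two-sided permutation test of this gene gave p = 0.1, the smallest value 3 against 3 libraries allow. Relative to DFO alone, where it stood at 8.18 ± 0.600 FPKM (mean ± SD, n = 3, as in all later values of this form), the difference was -2.67 (adjusted p = 2.39e-05).

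The combination was accompanied by a wide change of the transcriptome. Of 11476 genes, 1718 were called (15.0%), 1023 higher (8.91%) and 695 lower (6.06%). With an adjusted p below 0.05 alone, 2964 genes were higher (25.8%) and 2791 lower (24.3%), while the median change of all genes was 0.00. Called changes of over 4-fold comprised 339 rises and 122 falls, and those of over 16-fold 56 and 3. Among the called genes, 35 were listed at 0 FPKM in every siControl library and 4 in every siNCOA4 plus DFO library, and for these no fold change is given. They are included in the counts by fold change, where the added 0.1 sets the size of their change. Genes at 0 in every siControl library passed the filter only through siNCOA4 plus DFO. The genes called higher rose by a median of 1.55 log2 units in the combination and differed from siControl by 1.71 in DFO alone and 0.28 in siNCOA4. For the genes called lower the corresponding medians were -1.34, -1.30 and -0.45. These comparisons share the siControl libraries, and the medians are given side by side only.

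**Figure D1:**
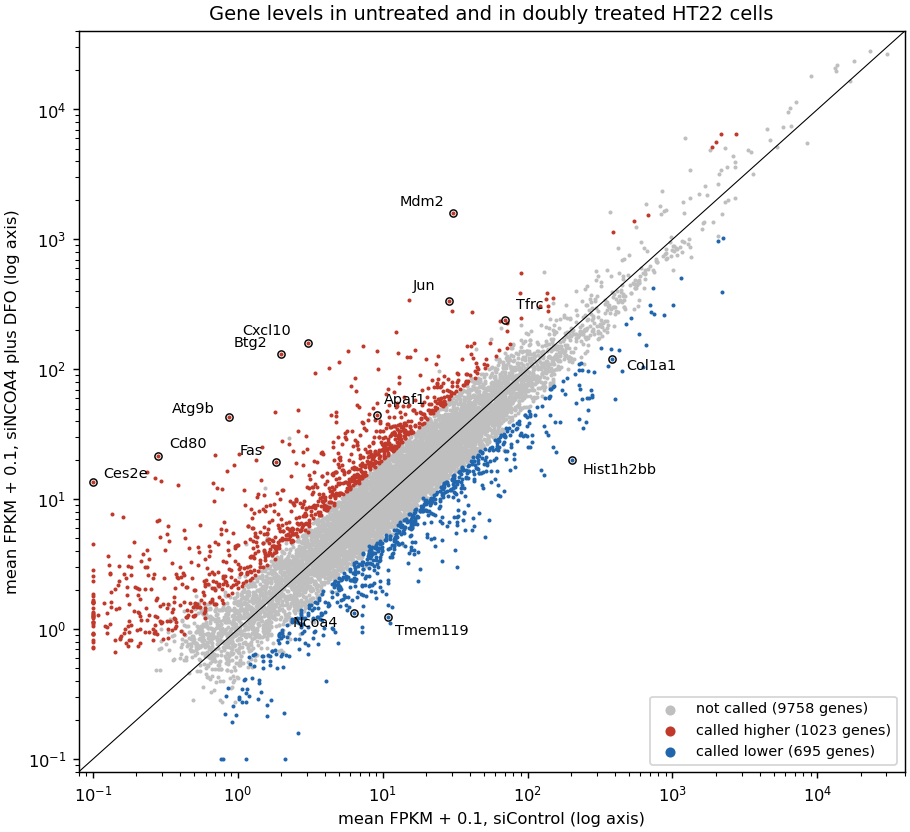
Mean FPKM + 0.1 of the 11476 genes tested in siControl (horizontal log axis) and in siNCOA4 plus DFO (vertical log axis), n = 3 libraries each, with the 1023 genes called higher in red and the 695 called lower in blue; the line marks equal levels. Points far above the line, such as Ces2e, Cd80, Mdm2 and Btg2, outnumber points equally far below it, among which are Hist1h2bb and Tmem119.

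Several of the largest rises came from genes that were nearly silent in control cells, and their size depended on the processing. Over the alternative settings, the change ranged from 3.84 to 10.4 log2 units for Ces2e and from 4.26 to 7.88 for Cd80. For Mdm2, which was well expressed in control cells, it ranged from 5.49 to 5.86. The order of these genes by size of rise is therefore not fixed. Ces2e, a carboxylesterase, had 0 FPKM listed in each siControl library and reached 13.3, 16.0 and 11.1 FPKM in siNCOA4 plus DFO (adjusted p = 4.08e-08). It was also above DFO alone, where it stood at 4.42 ± 2.40 FPKM, by 1.72 log2 units (adjusted p = 0.00981). Its neighbour on chromosome 8, Ces2f, had 0.584, 0 and 0 FPKM in siControl and 19.0, 14.1 and 8.0 in siNCOA4 plus DFO. This rise of 6.10 (adjusted p = 4.94e-05) was carried by every library, while the difference from DFO alone, 0.56, did not pass (adjusted p = 0.680). The carboxylesterase genes of this cluster resemble each other, and reads may have been divided between them.

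Cd80, which encodes a costimulatory ligand of T cells, went from 0.210, 0.335 and 0 FPKM to 19.9, 25.4 and 19.5. The rise of 6.50 log2 units (standard error 0.50, adjusted p = 6.93e-07) differed from DFO alone by 0.22 (adjusted p = 0.810). The uncharacterized gene 4833427G06Rik had 0, 0.411 and 0 FPKM in siControl and 20.6, 14.4 and 13.6 in siNCOA4 plus DFO, with a change of 6.54 (adjusted p = 8.41e-07). The other genes among the 12 largest rises were Btg2, Rsad2, Cxcl10, Zfp750, Sprr1a, Mdm2, Atg9b and Inpp5d. Zfp750, a transcription factor of epidermal differentiation, rose by 5.89 from 0.0352 ± 0.0609 to 7.63 ± 2.01 FPKM. Inpp5d, an inositol phosphatase known from blood cells, rose by 5.46 from 0.0625 ± 0.00740 to 7.21 ± 1.65. Atg9b, a relative of the autophagy scramblase ATG9A, had 0.609, 0.902 and 0.817 FPKM in siControl and 46.2, 48.4 and 34.6 in siNCOA4 plus DFO, a rise of 5.62 (adjusted p = 3.14e-10). The siControl and siNCOA4 plus DFO libraries do not overlap in these 12 genes, which was a condition of their choice.

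**Figure D2:**
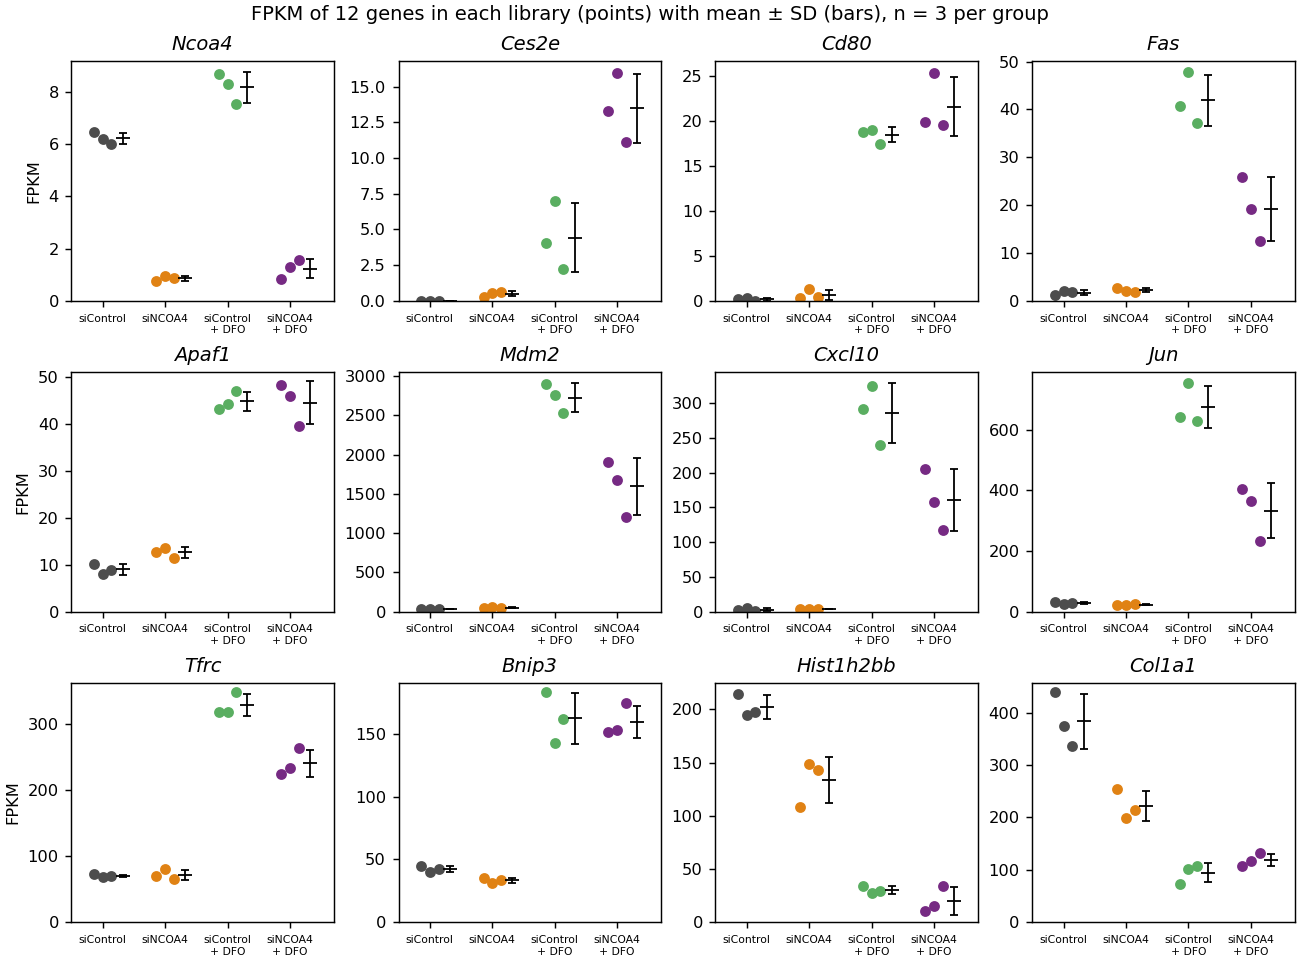
FPKM of 12 genes in each of the 12 libraries (points, coloured by group) with the mean ± SD of each group (black bars, n = 3); every vertical axis starts at 0 FPKM and has its own scale. Ncoa4 is low in both groups with Ncoa4 siRNA, Ces2e is higher in siNCOA4 plus DFO than in any other group, and Fas, Mdm2, Jun and Tfrc lie lower there than in DFO alone.

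Transcripts induced by p53, a transcription factor that halts the cell cycle or starts apoptosis after damage or stress, rose in siNCOA4 plus DFO by some of the largest factors measured. Of 17 targets involved in growth arrest and p53 feedback, 15 were called higher and 1 lower, beside 8.91% and 6.06% of all genes. Their median change was 2.37. Mdm2, the ubiquitin ligase that keeps p53 in check, had 31.1, 28.4 and 32.5 FPKM in siControl and 1912, 1676 and 1202 in siNCOA4 plus DFO. This is a rise of 5.67 log2 units (standard error 0.14, adjusted p = 1.01e-10), and Mdm2 was -0.80 relative to DFO alone (adjusted p = 0.00284). Cdkn1a, the CDK inhibitor p21, rose from 12.7, 16.2 and 16.1 to 409, 364 and 247 FPKM, by 4.47 (adjusted p = 1.38e-09). The antiproliferative gene Btg2 rose by 6.05, Trp53inp1 by 4.82 and Gadd45a, which responds to DNA damage, by 3.41. Ccng1, a cyclin under p53 control, rose from 89.8 ± 3.81 to 547 ± 34.9 FPKM and was the only member of the list above its level in DFO alone (0.36, adjusted p = 0.0240), which held under all alternatives except leaving out DFO alone replicate 2. Of all genes, 10.7% were lower than in DFO alone by the adjusted p, and of the other members of this list 7 were. That number fell to 3 with scaling without small RNAs, with quantile normalization, or without DFO alone replicate 1, DFO alone replicate 2 or siNCOA4 plus DFO replicate 3, and was 10 without siNCOA4 plus DFO replicate 1. Sesn1 was the member that fell, by 1.00. Without siControl replicate 1 or 2 or siNCOA4 plus DFO replicate 1 it was -0.97, -0.96 and -0.84, short of a 2-fold change. Trp53 itself had 56.3, 57.2 and 51.3 FPKM in siControl and 86.9, 82.1 and 51.9 in siNCOA4 plus DFO. These values overlapped and the change of 0.39 did not pass (adjusted p = 0.0541).

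Among p53 targets of the apoptotic arm, 9 of 13 tested were called higher and 1 lower, beside 8.91% and 6.06% of all genes. Their median was 2.03. Fas, the death receptor, rose from 1.22, 2.13 and 1.88 FPKM in siControl to 25.9, 19.1 and 12.5 in siNCOA4 plus DFO. The rise of 3.36 (standard error 0.26, adjusted p = 6.58e-07) left Fas below its level in DFO alone, 41.9 ± 5.39 FPKM, by 1.18 log2 units (adjusted p = 0.00909). Apaf1, the core of the apoptosome, went from 10.2, 7.97 and 8.87 to 48.3, 46.0 and 39.6 FPKM, a rise of 2.30 (adjusted p = 1.55e-08) with a difference of -0.01 from DFO alone (adjusted p = 0.954). The death domain genes Eda2r and Pidd1 rose by 3.64 and 3.52. Bbc3, which encodes the BH3-only protein PUMA, rose by 2.52 and Bax by 0.77, short of a 2-fold change. Trp63, a p53 relative with 0.914, 0.816 and 0.890 FPKM in siControl, was the member called lower (-2.31, adjusted p = 0.00433), and with a pseudocount of 1 its change was -0.75 and not called. Of 17 targets in repair and metabolism, 8 were called higher (47.1%, beside 8.91% of all genes) and none lower, with a median of 0.93. Polk, a translesion DNA polymerase, rose by 3.05, and Ptprv, a phosphatase gene, by 4.0, from 0.0551, 0.0439 and 0.0940 to 3.32, 2.66 and 1.78 FPKM.

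The BCL2 family and the caspases outside these p53 targets moved less, the BCL2 family mostly down and the caspases in both directions. Of 12 BCL2 family genes tested, none was called higher and 3 were called lower (25.0%, beside 6.06% of all genes). By the adjusted p, 6 were lower (50.0%, beside 24.3% of all genes) and 1 higher (8.33%, beside 25.8%), with a median of -0.31. Bmf, a BH3-only gene, fell from 2.77, 2.21 and 2.67 to 0.197, 0.424 and 1.18 FPKM, by 2.18, and Bak1, a pore-forming effector, fell by 1.06 (0.99 without siControl replicate 1, short of a 2-fold change). Mcl1, which protects from apoptosis, rose by 0.91 (adjusted p = 2.32e-06). Of 27 caspases and regulators, 3 were called higher and 1 lower, together 14.8% and so near the 15.0% of all genes. By the adjusted p, 11 were higher (40.7%, beside 25.8% of all genes) and 6 lower (22.2%, beside 24.3%). Dffb, the apoptotic DNase, rose by 2.70 from 1.76 ± 0.939 to 11.1 ± 2.64 FPKM, Casp4 by 1.51 and Mlkl, the effector of necroptosis, by 1.27.

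Genes of iron handling followed no single direction. Of 12 iron uptake genes tested, 4 were called higher (33.3%, beside 8.91% of all genes) and none lower. The call of 1 of the 4 was lost under 8 of 17 alternatives. By the adjusted p alone, 7 were higher (58.3%, beside 25.8% of all genes) and 3 lower (25.0%, near the 24.3% of all genes). Tfrc, the transferrin receptor, had 72.5, 68.6 and 69.8 FPKM in siControl and 224, 233 and 264 in siNCOA4 plus DFO. The groups were far apart and the rise was 1.77 (standard error 0.09, adjusted p = 2.07e-08). Relative to DFO alone, where Tfrc stood at 319, 318 and 348 FPKM, it was lower by 0.45 (adjusted p = 0.00469). Slc11a2, the divalent metal transporter DMT1, had 8.10, 9.39 and 9.58 FPKM in siControl and 10.3, 10.4 and 8.74 in siNCOA4 plus DFO. These values overlapped (change 0.12, adjusted p = 0.393), while in DFO alone Slc11a2 stood at 13.7, 14.1 and 15.5, above the combination by a difference of -0.56 (adjusted p = 0.00540). Slc39a14, a zinc and iron importer, rose by 1.40 from 4.65 ± 0.558 to 12.6 ± 2.87 FPKM. Lcn2, a siderophore-binding protein, was listed at 0 in siControl and reached 0.834, 0.775 and 1.51 FPKM in siNCOA4 plus DFO, through which alone it passed the filter.

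Of 9 genes of iron storage, sensing and export, 6 fell and 1 rose by the adjusted p, beside 24.3% and 25.8% of all genes. Ncoa4 was the only one of them called. Fth1, the heavy ferritin chain, had 1333, 1286 and 1323 FPKM in siControl and 939.6, 923 and 769 in siNCOA4 plus DFO, a fall of 0.59 (adjusted p = 3.80e-04). Ftl1, the light chain, fell by 0.35 (adjusted p = 0.0203). Ferritin genes have processed copies in the mouse genome, which may share reads with them. The iron regulatory proteins moved apart, with Ireb2 (IRP2) rising by 0.53 and Aco1 (IRP1) falling by 0.64. Slc40a1, the iron exporter ferroportin, was listed at 0 in siControl and at 0.273, 0.420 and 0.436 FPKM in siNCOA4 plus DFO, under the filter, and was not tested. Of 14 genes of heme synthesis and breakdown, 3 were higher (21.4%, beside 25.8% of all genes) and 5 lower (35.7%, beside 24.3%) by the adjusted p. Their median was -0.28. The 2 called genes, both higher, made up 14.3%, near the 15.0% of all genes. Hmox1, the heme oxygenase that frees iron from heme, went from 10.7, 10.4 and 11.1 to 75.6, 78.4 and 58.3 FPKM (2.70, adjusted p = 3.80e-08). The heme synthesis gene Cpox rose by 1.70. Of the 22 iron-sulfur cluster assembly genes, 2 were higher and 4 lower by the adjusted p alone, smaller shares than among all genes, and 1 was called higher.

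HIF targets outside glycolysis rose, with 15 of 28 tested called higher and 2 lower, beside 8.91% and 6.06% of all genes. Their median was 1.15. Ero1l, an endoplasmic reticulum oxidase, had 14.2, 12.7 and 10.1 FPKM in siControl and 216, 198 and 171 in siNCOA4 plus DFO (3.98, adjusted p = 5.38e-10). Plod2, a collagen lysyl hydroxylase, rose by 3.02, Ddit4, which restrains mTORC1, by 2.22, and Bnip3, a mitophagy receptor, by 1.90. HIF binds the letters ACGTG, the core of the hypoxia response element. These letters were looked for on both strands of the 250 bases before the start of each gene in RefSeq annotation of GRCm38.p6. They occurred in 10 of the 21 tested members with a promoter in the tables (47.6%), in 7 of 11 such members called higher, and in 4477 of 27025 promoters in all (16.6%). The windows of 3 members are shown because their transcripts rose and their promoters hold the core, in capitals. They lie at chr14:45318573-45318822 (Ero1l, minus strand), chr10:59951771-59952020 (Ddit4, minus strand) and chr7:138909507-138909756 (Bnip3, minus strand). In Bnip3 the core is present on both strands in 2 overlapping matches.
Ero1l: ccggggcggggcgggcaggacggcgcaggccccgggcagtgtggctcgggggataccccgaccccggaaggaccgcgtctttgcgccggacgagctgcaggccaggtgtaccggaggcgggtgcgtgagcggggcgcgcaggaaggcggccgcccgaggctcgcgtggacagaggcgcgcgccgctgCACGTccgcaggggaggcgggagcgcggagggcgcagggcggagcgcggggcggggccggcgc
Ddit4: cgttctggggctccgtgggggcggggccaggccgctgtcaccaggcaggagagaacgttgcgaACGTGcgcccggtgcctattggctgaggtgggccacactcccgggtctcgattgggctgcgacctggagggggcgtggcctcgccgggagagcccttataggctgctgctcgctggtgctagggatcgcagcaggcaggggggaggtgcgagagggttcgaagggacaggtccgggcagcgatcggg
Bnip3: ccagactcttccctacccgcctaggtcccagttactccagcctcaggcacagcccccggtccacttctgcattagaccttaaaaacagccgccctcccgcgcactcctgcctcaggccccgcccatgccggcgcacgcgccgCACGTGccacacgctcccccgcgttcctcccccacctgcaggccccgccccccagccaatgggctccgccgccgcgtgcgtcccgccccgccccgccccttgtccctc
Such a match describes the letters of the window and is not a measured binding site. Members of this list were chosen as HIF targets, and the promoters in all include genes that were not tested here. These shares therefore do not measure HIF action in these data. The same limit holds for the other motif counts below and their factors.

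Several HIF targets rose less in the combination than in DFO alone. Of the 28, 11 were lower than in DFO alone and 1 was higher (adjusted p), against 10.7% lower and 6.51% higher of all genes. Ndrg1, a stress-responsive gene, had 42.5, 37.9 and 34.1 FPKM in siControl, 176, 156 and 125 in siNCOA4 plus DFO and 343, 349.9 and 326 in DFO alone. It lay above siControl by 1.99 and relative to DFO alone differed by -1.17 (adjusted p = 5.24e-04). Gys1, a glycogen synthase, had 28.7, 23.4 and 23.9 FPKM in siControl and 28.6, 26.1 and 28.7 in siNCOA4 plus DFO, which overlapped, against 67.6, 69.3 and 70.4 in DFO alone (-1.31, adjusted p = 8.00e-05). Of 23 glycolysis genes, 6 were called higher (26.1%, beside 8.91% of all genes) and none lower, with a median of 0.29. Hk2, which commits glucose to the cell, rose by 1.80, the glucose transporter Slc2a1 by 1.64 and Pfkp by 1.30. Pgk1 rose by 0.26, from 298, 276 and 296 to 335, 325 and 386 FPKM, and stood at 583, 557 and 537 in DFO alone (-0.68, adjusted p = 3.53e-04). In all, 10 glycolysis genes were lower than in DFO alone and none higher, while 5 were lower with quantile normalization or without DFO alone replicate 2 and 6 when libraries were scaled without small RNAs.

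The integrated stress response, in which ATF4 raises genes of amino acid supply and stress control, rose broadly at a modest amplitude. By the adjusted p, 35 of 38 members were higher (92.1%, beside 25.8% of all genes) and 1 was lower. The 15 called (39.5%, beside 8.91% of all genes called higher) were all higher, and the median was 0.78. Ppp1r15a, the phosphatase subunit GADD34 that restores translation, went from 8.36, 6.66 and 6.51 to 179, 172 and 105 FPKM (4.36, adjusted p = 3.21e-08). Slc7a11, the cystine importer, went from 1.55, 1.35 and 1.20 to 25.9, 25.6 and 24.4 FPKM, a rise of 4.12 (adjusted p = 6.23e-10) and of 0.54 over DFO alone (adjusted p = 0.0148). The median difference of the list from DFO alone was -0.21. Slc7a11 was 1 of 2 members above DFO alone by the adjusted p, while 8 were below it, beside 6.51% and 10.7% of all genes. With quantile normalization the counts were 4 and 4, and without DFO alone replicate 2 they were 1 and 5. Ddit3 (CHOP) rose by 2.72, Cth, which makes cysteine, by 2.27, Chac1, which degrades glutathione, by 1.90, and Atf4 by 0.76. Psat1, a serine synthesis gene, was the member that fell (-0.31, adjusted p = 0.00170). Of 22 genes of the unfolded protein response, 4 were called higher (18.2%, beside 8.91% of all genes) and none lower. Hspa5, the chaperone BiP, rose from 390.4 ± 16.1 to 1144 ± 167 FPKM, by 1.54, and Dnajb9 by 2.43. The letters TGATGNAA, which describe the C/EBP-ATF response element that ATF4 binds, occurred in 8 of 32 promoters of the integrated stress response list (25.0%), in 5 of 14 members called higher, and in 954 of all promoters (3.53%). The window of Slc7a11 at chr3:50443614-50443863 (GRCm38.p6, minus strand) is shown for a member called higher. It holds 2 such matches, in capitals, on opposite strands.
Slc7a11: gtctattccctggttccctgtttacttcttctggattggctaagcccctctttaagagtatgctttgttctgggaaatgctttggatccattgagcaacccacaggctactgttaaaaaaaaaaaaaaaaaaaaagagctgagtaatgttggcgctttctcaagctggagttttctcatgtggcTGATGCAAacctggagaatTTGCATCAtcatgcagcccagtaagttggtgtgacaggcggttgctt

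Interferon response and antigen processing genes, whose products sense and restrict viruses or load peptides for display, were higher in siNCOA4 plus DFO. Of 34 tested, 28 rose (82.4%, beside 25.8% of all genes) and none fell by the adjusted p. Called genes numbered 22, all higher (64.7%, beside 8.91% of all genes), and the median was 1.68. Members at 0 in every siControl library numbered 4 of the 38, and those at 0 in every siNCOA4 plus DFO library 1. A gene silent in siControl was tested only if siNCOA4 plus DFO carried it past the filter, so the counts lean towards rises. Rsad2, the antiviral enzyme viperin, had 0.359, 0.143 and 0 FPKM in siControl and 19.2, 13.7 and 10.5 in siNCOA4 plus DFO (5.99, adjusted p = 2.26e-06). Cxcl10, an interferon-induced chemokine, went from 2.74, 4.90 and 1.17 to 206, 158 and 118 FPKM (5.90, adjusted p = 1.26e-07). Ifit1, which binds foreign RNA caps, rose by 4.60 from 4.15 ± 0.702 to 103 ± 16.7 FPKM, Mx2 by 4.72 and Isg15, a ubiquitin-like modifier, by 2.64. Usp18, which removes ISG15 from proteins, was listed at 0 in siControl and at 5.98, 2.85 and 4.56 FPKM in siNCOA4 plus DFO, through which alone it passed the filter. The interferon-stimulated response element, sought as GAAANNGAAA, occurred in 15 of 28 members' promoters (53.6%), in 13 of 19 called higher, and in 821 of all promoters (3.04%). The windows at chr12:26456453-26456702 (Rsad2, minus strand), chr5:92348890-92349139 (Cxcl10, minus strand) and chr19:34640639-34640888 (Ifit1, plus strand; GRCm38.p6) are shown for called members of the list. Capitals mark the element, which reads as its reverse complement in Rsad2 and in both matches of Ifit1.
Rsad2: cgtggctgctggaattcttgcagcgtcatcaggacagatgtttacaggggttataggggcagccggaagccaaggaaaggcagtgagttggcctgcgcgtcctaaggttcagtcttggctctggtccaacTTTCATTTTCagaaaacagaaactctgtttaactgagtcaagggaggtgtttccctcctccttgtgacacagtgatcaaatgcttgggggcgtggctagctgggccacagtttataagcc
Cxcl10: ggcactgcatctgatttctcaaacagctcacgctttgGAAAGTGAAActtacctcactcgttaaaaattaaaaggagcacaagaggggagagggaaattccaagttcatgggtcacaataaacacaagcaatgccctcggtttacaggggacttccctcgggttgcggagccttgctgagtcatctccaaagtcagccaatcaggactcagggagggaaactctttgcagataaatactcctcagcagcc
Ifit1: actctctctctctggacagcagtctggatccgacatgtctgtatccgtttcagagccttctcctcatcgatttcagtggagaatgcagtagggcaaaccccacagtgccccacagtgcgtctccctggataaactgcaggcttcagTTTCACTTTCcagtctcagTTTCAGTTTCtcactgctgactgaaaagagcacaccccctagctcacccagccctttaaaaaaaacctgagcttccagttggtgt

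Within this list the members differed in their relation to DFO alone. By the adjusted p, 14 were higher in the combination than in DFO alone and 2 lower, beside 6.51% and 10.7% of all genes. However, the 14 fell to between 6 and 9 when any 1 library was left out and to 9 with the replicate block or a pseudocount of 0.01. Igtp, an immunity-related GTPase, had 2.61, 2.22 and 2.53 FPKM in siControl, 7.68, 6.09 and 5.64 in siNCOA4 plus DFO and 2.14, 2.09 and 2.22 in DFO alone (1.53, adjusted p = 1.38e-04). Irgm2, of the same family, was above DFO alone by 1.72 and Ifi44 by 2.53. Ifit1 was below DFO alone, 151 ± 15.6 FPKM, by 0.56 (adjusted p = 0.0222). For Rsad2 the difference from DFO alone was -0.55 and for Cxcl10 -0.86, neither past the threshold (adjusted p = 0.512 and 0.126).

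Inflammatory genes, immediate early genes and epithelial stress genes rose steeply, and many of them lay below their levels in DFO alone. Of 33 inflammatory and costimulatory genes, 22 were tested. Members at 0 in every siControl library numbered 11, and those at 0 in every siNCOA4 plus DFO library 6. Those silent in siControl could be tested only through siNCOA4 plus DFO. Of the 22, 15 were called higher (beside 8.91% of all genes) and none lower, with a median of 2.21. By the adjusted p, 19 were higher and 3 lower. Relative to DFO alone, 13 were lower by the adjusted p (beside 10.7% of all genes) and none higher. Ptgs2, the inducible cyclooxygenase, had 5.47, 5.47 and 6.07 FPKM in siControl and 150.2, 146 and 119 in siNCOA4 plus DFO (4.58, adjusted p = 3.07e-11). The chemokine Ccl5 rose by 4.52, from 4.86 ± 1.30 to 113 ± 27.5 FPKM, and stood at 250.4 ± 34.6 in DFO alone (-1.17, adjusted p = 0.00324). Lif, an IL-6 family cytokine, rose by 4.71 and Cxcl1 by 3.70. Ccl4 was listed at 0 in siControl, at 2.30, 3.74 and 0.695 FPKM in siNCOA4 plus DFO and at 9.65, 10.8 and 5.41 in DFO alone (-2.11, adjusted p = 0.0174, and 0.0655 and 0.0796 without DFO alone replicate 1 and 2). Nfkbia, the inhibitor that NF-kB itself induces, rose by 1.85 and was lower than in DFO alone by 1.30 (adjusted p = 3.05e-04).

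Of 23 immediate early genes, which respond to signals within minutes, 19 were called higher (82.6%, beside 8.91% of all genes) and none lower (median 2.13). Relative to DFO alone, 17 were lower by the adjusted p, beside 10.7% of all genes. Jun, of the AP-1 factor, had 31.8, 24.1 and 29.5 FPKM in siControl, 404, 365 and 232 in siNCOA4 plus DFO and 642, 755 and 629 in DFO alone. It rose by 3.52 (standard error 0.17, adjusted p = 2.08e-08) and lay below DFO alone by 1.05 (adjusted p = 0.00216). The AP-1 member Fosl1 rose by 3.86, Fos by 5.01 and Egr1 by 2.47. Myc, which drives growth, rose from 17.9 ± 0.436 to 90.4 ± 23.6 FPKM and stood at 222 ± 32.4 in DFO alone (-1.32, adjusted p = 4.50e-04). Of 20 keratin and epithelial stress genes, 10 passed the filter. Members at 0 in every siControl library numbered 8 of the 20, and those at 0 in every siNCOA4 plus DFO library 3. A gene silent in siControl was tested only if siNCOA4 plus DFO carried it past the filter, so the counts lean towards rises. Of the 10, 9 were called higher (beside 8.91% of all genes), with a median of 2.85. By the adjusted p, 4 were lower than in DFO alone, beside 10.7% of all genes. Sprr1a, a cornified envelope protein that injured neurons also make, went from 0, 0 and 0.871 to 16.0, 17.0 and 4.98 FPKM, by 5.71. The EGF receptor ligands Areg and Ereg rose by 4.82 and 3.96. Krt16 was listed at 0 in siControl and at 3.94, 1.54 and 1.99 FPKM in siNCOA4 plus DFO, below the 14.6, 14.2 and 8.03 of DFO alone (-2.32, adjusted p = 0.00637, and 0.135 with a pseudocount of 0.01).

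**Figure D3:**
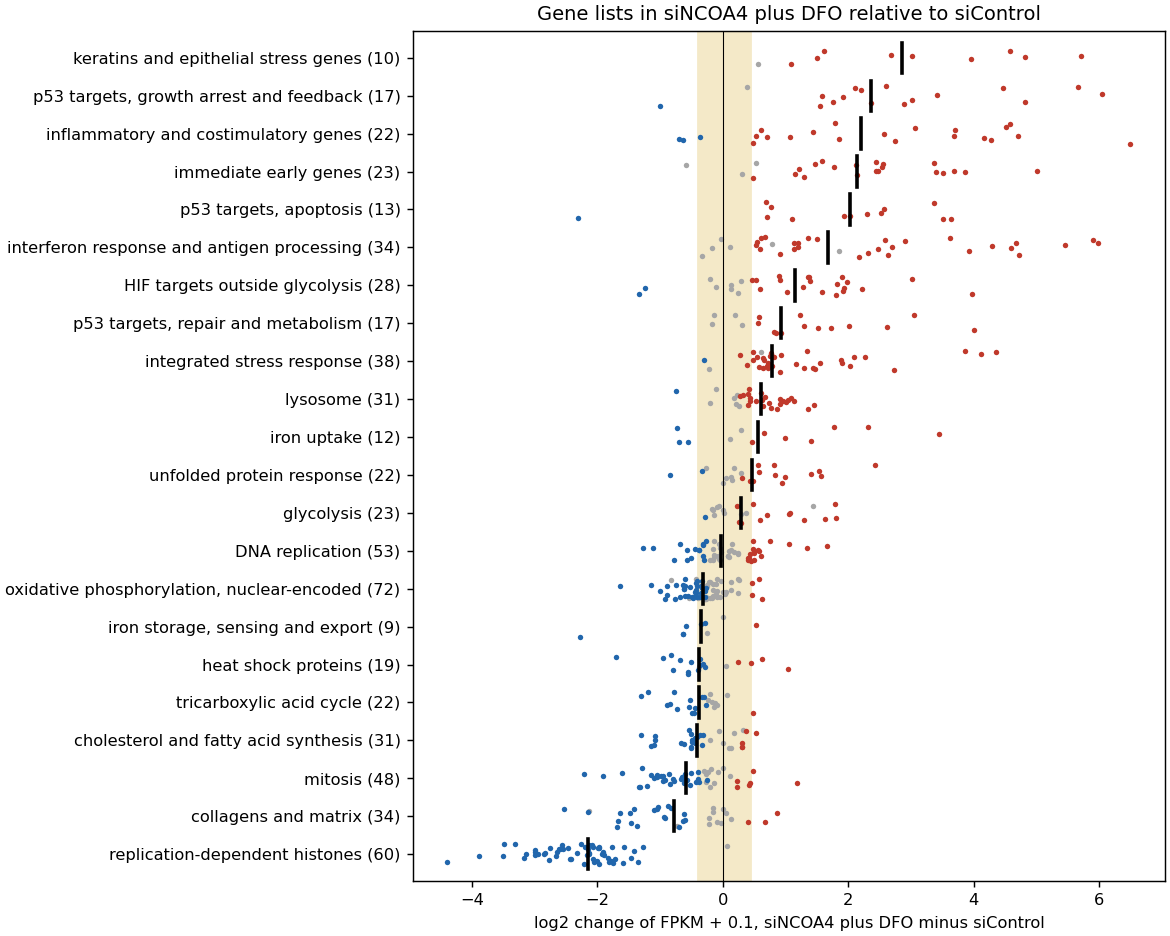
Change of log2(FPKM + 0.1) in siNCOA4 plus DFO relative to siControl for the tested members of 22 gene lists (number in brackets), red where higher and blue where lower at an adjusted p below 0.05, grey otherwise; the black bar is the median of the list and the band holds the middle 50% of all 11476 genes, from -0.40 to 0.45. The median is 2.85 for keratins and epithelial stress genes and -2.15 for replication-dependent histones, at the ends of the order. Members silent in siControl were tested only if siNCOA4 plus DFO carried them past the filter, which can raise the median of a list.

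Replication-dependent histone genes, which supply the proteins that package new DNA, fell almost without exception. Of 60 tested, 59 were called lower (98.3%, beside 6.06% of all genes) and the median was -2.15. The median by class was -2.08 for the 5 H1 genes, -2.33 for 15 H2A, -2.59 for 17 H2B, -1.99 for 11 H3 and -1.95 for 12 H4 genes. Hist1h2bb had 215, 194 and 197 FPKM in siControl and 10.3, 15.3 and 34.6 in siNCOA4 plus DFO, a fall of 3.51 (standard error 0.31, adjusted p = 2.26e-06). Hist1h1a, a linker histone, went from 164, 113 and 112 to 19.7, 9.16 and 16.7 FPKM (-3.13) and was also below DFO alone by 1.76 (adjusted p = 8.13e-04). Hist1h2ba was listed at 0 in all siNCOA4 plus DFO libraries after 2.28, 1.79 and 1.97 FPKM in siControl (adjusted p = 5.29e-04). Hist1h2ad fell by 3.90 (adjusted p = 0.0304), but its adjusted p was between 0.0616 and 0.0704 when any siControl replicate was left out and 0.135 without siNCOA4 plus DFO replicate 2. The member that did not pass, Hist3h2ba, had 1.03, 0 and 0.892 FPKM in siControl and 0.935, 0 and 1.14 in siNCOA4 plus DFO. In comparison with DFO alone, 22 histone genes were lower in the combination by the adjusted p (beside 10.7% of all genes) and none higher. With quantile normalization 13 were lower. Many histone genes are near-identical, and reads may have been divided between them, so that values of single members are uncertain. Most of these transcripts also lack a poly(A) tail, and their detection rests on a library made from total RNA.

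**Figure D4:**
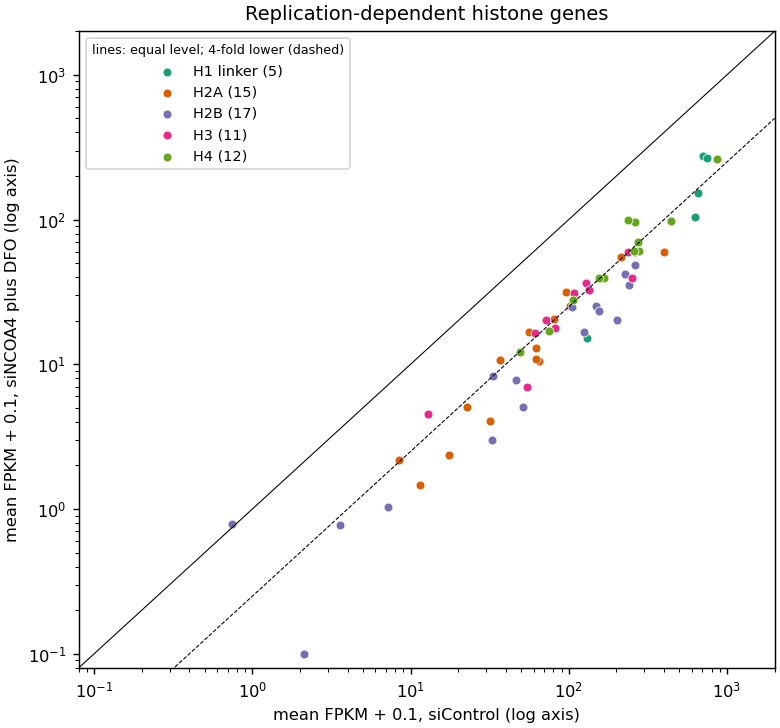
Mean FPKM + 0.1 of the 60 tested replication-dependent histone genes in siControl (horizontal log axis) and in siNCOA4 plus DFO (vertical log axis), n = 3 libraries each, coloured by histone class; the solid line marks equal levels and the dashed line a 4-fold lower level. All classes lie near or under the dashed line, apart from 1 weakly expressed H2B gene, Hist3h2ba, near the line of equal levels.

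Mitotic genes fell and DNA replication genes moved about as often as all genes. Of 48 mitotic genes, 32 were lower (66.7%) and 6 higher (12.5%) by the adjusted p, beside 24.3% and 25.8% of all genes. Those called were 11 lower and 1 higher, beside 6.06% and 8.91% of all genes, and the median was -0.58. Plk1, the kinase of mitotic entry, had 36.7, 34.8 and 36.9 FPKM in siControl and 9.59, 7.01 and 6.69 in siNCOA4 plus DFO (-2.22, adjusted p = 6.07e-07). The spindle checkpoint gene Bub1b fell by 1.92, the kinesin Kif22 by 1.61 and Cenpf, a kinetochore protein, by 1.29. Kif18b, another kinesin, was called higher (1.18, and 1.00 without siNCOA4 plus DFO replicate 1, short of the call). Of 53 DNA replication genes, 17 were higher (32.1%) and 15 lower (28.3%), beside 25.8% and 24.3% of all genes, and 3 were called higher against 2 lower. Ccne2, a cyclin of S phase entry, went from 8.28, 8.86 and 8.31 to 27.8, 23.7 and 29.7 FPKM, by 1.66, and Orc1, of the origin recognition complex, rose by 1.34. Rrm2, the iron-containing subunit of ribonucleotide reductase, rose from 44.3, 46.6 and 43.4 to 106, 94.6 and 79.8 FPKM (1.05, adjusted p = 2.12e-06, and 0.96 without siNCOA4 plus DFO replicate 1) and was below DFO alone by 0.50 (adjusted p = 0.00396). Tk1, the salvage kinase for thymidine, fell by 1.27.

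Genes of the extracellular matrix and mesenchyme were lower. Of 34 collagen and matrix genes, 20 fell (58.8%) and 3 rose (8.82%) by the adjusted p, beside 24.3% and 25.8% of all genes. The 12 called were all lower (35.3%, beside 6.06% of all genes), and the median was -0.79. Col1a1, a chain of type I collagen, had 439, 374 and 337 FPKM in siControl and 108, 118 and 132 in siNCOA4 plus DFO (-1.68, adjusted p = 2.24e-06). Its partner chain Col1a2 fell by 1.69. Col3a1 went from 297, 286 and 283 to 71.0, 89.2 and 127 FPKM, by -1.63, and was above DFO alone by 0.71 (adjusted p = 0.0134). The membrane protease Mmp14 fell from 139 ± 11.4 to 31.4 ± 3.60 FPKM and was below DFO alone by 0.97 (adjusted p = 1.34e-04), and Lox, which crosslinks collagen, fell by 1.43. Of the 8 tested fibroblast and mesenchyme markers, 7 were called lower (87.5%, beside 6.06% of all genes, median -1.68), including the PDGF receptors Pdgfrb (-2.44) and Pdgfra (-2.08). Their summed FPKM was at least 3236 in siControl and at most 1727 in siNCOA4 plus DFO, and the part that a change of cell makeup may have in the matrix genes was not tested.

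Outside these lists, the large falls included metabolic and membrane genes. Aldh3a1, an aldehyde dehydrogenase, had 11.1, 9.87 and 12.5 FPKM in siControl and 0.610, 1.69 and 0.732 in siNCOA4 plus DFO (-3.46, adjusted p = 1.78e-06). Tmem119, used as a microglial marker in brain and also made by bone-forming cells, fell by 3.31 from 10.7 ± 0.998 to 1.15 ± 0.789 FPKM, and no other microglial marker of 7 passed the filter. The water channel Aqp5 fell by 3.28 and angiotensinogen, Agt, by 3.28. Dynlt1f, a dynein light chain gene with close copies, fell by 4.23 (standard error 1.12). Among 29 tested genes of neuron development and axon guidance, 4 were called higher and 7 lower, beside 8.91% and 6.06% of all genes. By the adjusted p, 9 were higher (31.0%) and 8 lower (27.6%), near the 25.8% and 24.3% of all genes. Nrp2, a semaphorin receptor, fell from 44.8, 38.8 and 40.6 to 5.28, 4.84 and 6.99 FPKM (-2.85, adjusted p = 6.65e-08) and its ligand Sema3f by 2.35. Epha2, an ephrin receptor, rose by 2.96 and Sema3c by 2.08.

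Mitochondrial and lipid genes shifted down by small amounts. By the adjusted p, 24.3% of all genes were lower and 25.8% higher, and the shares of list members below stand beside these. Of 72 nuclear-encoded subunits of oxidative phosphorylation, 35 were lower (48.6%) and 4 higher by the adjusted p, only 2 of them called, with a median of -0.31. When libraries were scaled without small RNAs, 23 were lower and 6 higher. Cox7b, of cytochrome c oxidase, fell by 1.64 from 142 ± 34.6 to 44.5 ± 3.09 FPKM and Ndufa3, of complex I, by 1.15 (adjusted p = 0.0226). The call of Ndufa3 was lost without siControl replicate 2 or 3 or siNCOA4 plus DFO replicate 1 or 2 (adjusted p = 0.0707, 0.0825, 0.0522 and 0.0764). Of 22 genes of the tricarboxylic acid cycle, 14 were lower (63.6%) and 1 higher, and 2 were called lower, among them Sdhc, also of complex II (-1.30). Of 31 genes of cholesterol and fatty acid synthesis, 19 were lower (61.3%) and 5 higher. The 5 called were all lower, with Elovl6, a fatty acid elongase, at -1.31. Of 27 NRF2 and glutathione genes, 13 were lower (48.1%) and 6 higher. Nqo1, a quinone reductase, fell from 38.8, 41.8 and 46.3 to 14.2, 16.1 and 16.3 FPKM (-1.44) and the glutathione transferase Gstm1 from 59.1 ± 1.44 to 14.2 ± 4.65. Of 19 heat shock genes, 13 were lower (68.4%) and 4 higher. Hsph1, a co-chaperone of HSP70, fell from 97.9, 98.1 and 100.0 to 29.4, 28.9 and 32.9 FPKM, by 1.70 (adjusted p = 4.25e-09), and was below DFO alone by 0.62 (adjusted p = 1.71e-04). Of 75 cytosolic ribosomal protein genes, 28 were lower (37.3%) and none higher. The count of lower genes ranged over alternatives from 13, with libraries scaled without small RNAs, to 62, without siControl replicate 1.

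Lysosomal genes, by contrast, rose. Of 31 tested, 24 were higher (77.4%) and 1 lower (3.23%) by the adjusted p, beside 25.8% and 24.3% of all genes. The 6 called were all higher (19.4%, beside 8.91% of all genes), and the median was 0.61. Gla and Neu1, lysosomal glycosidases, rose by 1.45 and 1.36, and Npc1, which exports cholesterol from lysosomes, by 1.13 (0.97 without siNCOA4 plus DFO replicate 2). Atp6v1c1, a subunit of the proton pump, had 52.4, 52.1 and 52.5 FPKM in siControl, 109, 109 and 104 in siNCOA4 plus DFO and 86.1, 68.2 and 74.7 in DFO alone. It rose by 1.03 and lay above DFO alone by 0.50 (adjusted p = 0.00231). In all, 11 lysosomal genes were above their level in DFO alone by the adjusted p and none below, beside 6.51% and 10.7% of all genes. Without DFO alone replicate 1 or without siNCOA4 plus DFO replicate 1 or 2, 7 were above it. The 11 included the membrane proteins Lamp1 (0.50) and Lamp2 (0.53) and the calcium channel Mcoln1 (0.61, adjusted p = 0.00372). Of 41 autophagy and mitophagy genes, 18 were higher (43.9%) and 2 lower (4.88%) by the adjusted p, beside 25.8% and 24.3% of all genes. The 5 called were all higher (12.2%, beside 8.91% of all genes). Sqstm1, the cargo receptor p62, rose from 130.2, 140.2 and 138 to 438, 426 and 299 FPKM (1.49) and Ulk1, the initiating kinase, by 1.88.

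The difference between the combination and DFO alone was narrower. Of the 11476 genes, 228 were called (1.99%), 121 higher (1.05%) and 107 lower (0.932%), and by the adjusted p 747 were higher (6.51%) and 1230 lower (10.7%). Of the 1023 genes called higher than siControl, 177 were lower and 56 higher than in DFO alone, and of the 695 called lower, 133 were lower still and 33 higher. The split of this comparison depended on the scaling, with 53.1% of calls higher for FPKM as deposited, 72.2% when libraries were scaled without small RNAs and 35.8% with quantile normalization. Scaling without small RNAs moved the median of all genes in this comparison to 0.11, so that small differences from DFO alone are best read against that shift. Apart from Ncoa4 and Gm19705, a predicted gene that was listed at 0 in DFO alone and at 2.21, 3.11 and 1.35 FPKM in siNCOA4 plus DFO, the largest differences included Naip7, Ogn, Ugt1a5 and Akr1c12 (higher) and Krt16, Ccl4 and Nr1d1 (lower). Naip7, of the NAIP inflammasome sensors, had 3.25, 3.63 and 4.69 FPKM in siNCOA4 plus DFO and 0.0600, 0.684 and 1.62 in DFO alone (2.71, adjusted p = 0.0119). Close NAIP copies may share its reads. Ogn, the matrix proteoglycan osteoglycin, had 5.66, 7.27 and 17.7 against 1.16, 0.985 and 2.67 FPKM (2.55, adjusted p = 0.00138) and 17.6, 17.3 and 21.5 in siControl.

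Nr1d1, the heme-binding clock repressor REV-ERB alpha, differed between the combination and each of the other groups. It had 5.99, 4.47 and 4.90 FPKM in siControl, 1.53, 1.19 and 1.68 in siNCOA4, 40.0, 39.7 and 36.3 in DFO alone and 12.7, 9.56 and 7.94 in siNCOA4 plus DFO. The combination lay above siControl by 0.94 (adjusted p = 8.91e-04), above siNCOA4 by 2.69 (adjusted p = 3.71e-07) and below DFO alone by 1.96 (adjusted p = 7.12e-05). None of these groups overlapped.

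**Figure D5:**
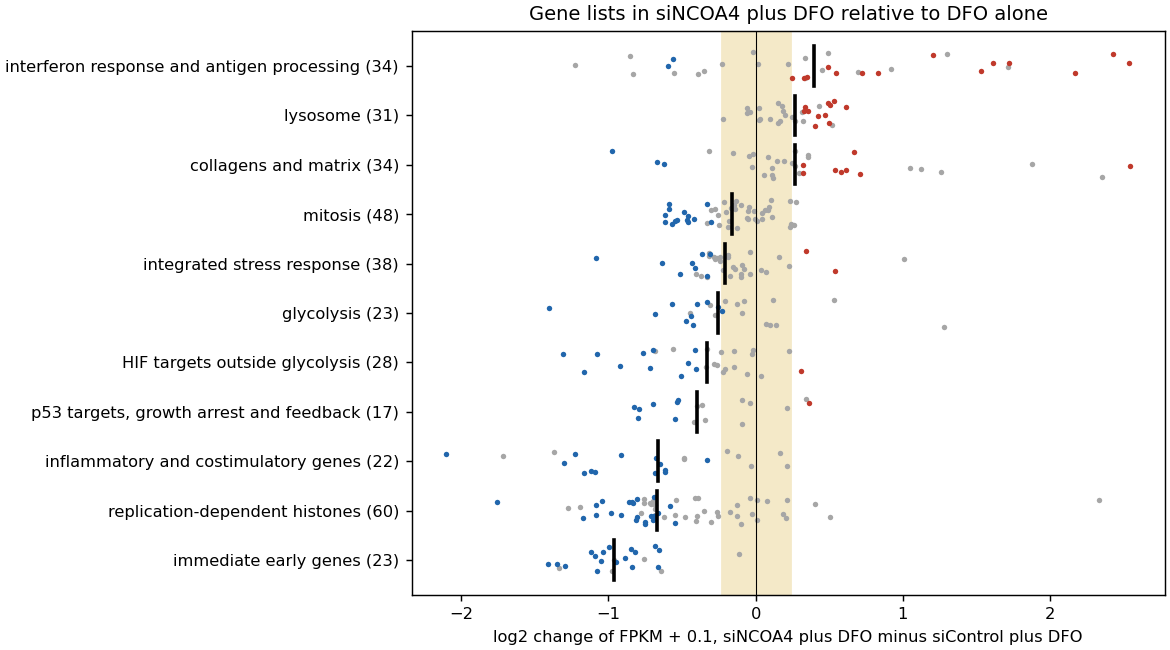
Change of log2(FPKM + 0.1) of siNCOA4 plus DFO libraries relative to DFO alone for the tested members of 11 gene lists (number in brackets), red where higher and blue where lower at an adjusted p below 0.05, grey otherwise; the black bar is the median of the list and the band holds the middle 50% of all 11476 genes, from -0.23 to 0.24. Immediate early genes have a median of -0.96, and the interferon list, with 0.40, and the lysosome list, with 0.27, have medians above 0.

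Relative to siNCOA4 the combination showed 1288 calls (11.2%), of which 853 were higher (7.43%) and 435 lower (3.79%). By the adjusted p alone 2710 genes were higher (23.6%) and 2336 lower (20.4%). The largest rises were in Zfp750 (5.95), Cxcl10 (5.25), Ces2f (5.14), Btg2 (5.02) and Gdf15, a stress cytokine that was listed at 0 in siNCOA4 and at 5.97, 3.21 and 2.65 FPKM in siNCOA4 plus DFO. Tubb2b, a neuronal tubulin, fell by 2.95 and Bmf by 2.87, from 4.01, 4.33 and 4.18 to 0.197, 0.424 and 1.18 FPKM (adjusted p = 4.45e-04). An entry whose symbol had been turned into a date was also among the 5 largest falls and is not described here.

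The interaction of siRNA and DFO, that is the difference between the effect of Ncoa4 siRNA with DFO and without it, passed an adjusted p of 0.05 in 266 genes (2.32%), 88 with a positive and 178 with a negative sign. A negative sign means that the combination lay below the sum of the single changes on the log2 scale. For Mdm2 the interaction was -1.51 (adjusted p = 0.00350), for Cdkn1a -2.24 (adjusted p = 8.16e-04), and for Atg9b -1.86 (adjusted p = 0.00330). Cdkn1a stood at 15.0 ± 1.98 FPKM in siControl, 53.2 ± 2.89 in siNCOA4, 445 ± 19.2 in DFO alone and 340.1 ± 83.6 in siNCOA4 plus DFO, so that it was already raised by the siRNA without DFO. For Mmp14 the interaction was positive, 1.03 (adjusted p = 0.00421), with 139 ± 11.4, 34.7 ± 1.98, 61.6 ± 5.76 and 31.4 ± 3.60 FPKM in the same order of groups.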

How the data were processed

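RNA was taken from HT22 cells in 4 groups of 3 libraries, and libraries were made with a stranded total RNA kit (SMARTer Stranded Total RNA-Seq Pico). The submitters' processing notes name Trimmomatic 0.33, FastQC, HISAT2 2.1.0, featureCounts, edgeR and the mm10 build. The authors deposited FPKM per gene and sample, normalized to transcript length and mapped fragments, with no counts. The tool and annotation behind these FPKM values are not given in the sources used here.

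Each table held 24347 entries. The 4 that shared a name were left out, 6929 genes were at 0 in all 12 libraries, and 23 kept genes carried a date in place of a symbol. Testing was limited to genes at or above 0.5 FPKM in 3 or more of the 6 compared libraries. Values were taken as log2(FPKM + 0.1) and fitted with limma 3.58.1 in R 4.3.3 on all 12 libraries (means of 4 groups, mean-variance trend, 8 residual degrees of freedom, two-sided tests, Benjamini-Hochberg adjustment over all 11476 genes). A call required more than a 2-fold change together with an adjusted p below 0.05. The fit was tested on simulated data. Tables and plots were made with Python 3.11.15, numpy 2.4.6, pandas 2.3.3, scipy 1.17.1 and matplotlib 3.10.9. Promoter windows were taken from RefSeq (GRCm38.p6).

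Samples were grouped by their labels. The named genes are Ncoa4, Ces2e, Cd80, Fas and Apaf1, the 12 largest rises and falls among called genes with a mean of at least 2 FPKM in the higher group, no overlap and no small RNA, the 5 largest in each direction in both other comparisons, and members of gene lists. The comparison, genes and lists were chosen with earlier results of these data known. The labels call the 3 libraries of a group biological replicates without saying whether they are separate cultures or days, and p-values measure the spread between them. Same-numbered libraries of siControl and siNCOA4 plus DFO deviated from their group means with correlations of 0.145, 0.0266 and -0.0666, so the numbers were not taken to pair samples. Alternatives covered the pseudocount, the filter, the scaling, the moderation, the replicate block, the groups in the fit and leaving out each library. They were not followed for the interaction of siRNA and DFO. Some results that the rule covers are not reported here.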

Additional observations from a re-analysis of the deposited data

Results flagged for a closer look

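Flagged here are the named genes for which Ncoa4 siRNA had an effect that differed with and without DFO, by the interaction term of the limma fit across all 12 libraries at an adjusted p below 0.05. This held for 30 of the 151 genes named, of which 24 had a negative sign, and for 2.32% of all genes tested. Most named genes were chosen for large changes in these same libraries, so these shares do not measure an enrichment. Values are interactions on the log2(FPKM + 0.1) scale, and they include groups in which a gene was listed at 0. They come from the main fit alone and were not followed over the alternatives.

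Among p53 targets the interaction was -2.24 for Cdkn1a, -1.57 for Fas, -1.51 for Mdm2, -1.49 for Eda2r, -1.39 for Trp53inp1, -1.38 for Btg2, -1.18 for Polk, -1.09 for Gadd45a and -1.03 for Ccng1. For Eda2r the means ± SD of the groups were 5.92 ± 0.700 FPKM in siControl, 17.9 ± 1.18 in siNCOA4, 70.0 ± 1.26 in DFO alone and 75.0 ± 5.43 in siNCOA4 plus DFO, so that the siRNA raised it without DFO and its difference of 0.10 with DFO did not pass (adjusted p = 0.512). Inflammatory and interferon genes had interactions of -2.17 (Cxcl1), -1.63 (Ccl5), -1.43 (Lif), -1.33 (Ifit1), -1.30 (Nfkbia) and -0.77 (Ptgs2). The stress genes Ddit4, Ero1l, Cth and Hsph1 stood at -0.87, -0.84, -0.63 and -0.50. The other negative values were -3.99 for 4833427G06Rik, -1.86 for Atg9b, -1.09 for Smad7, -1.04 for Ccne2 and -0.81 for Sema3c.

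Matrix and mesenchymal genes had the opposite sign, with 1.67 for Pdgfrb, 1.14 for Col1a1, 1.07 for Col3a1 and 1.03 for Mmp14. Col1a1 stood at 439, 374 and 337 FPKM in siControl, 222 ± 28.5 in siNCOA4, 94.2 ± 18.1 in DFO alone and 108, 118 and 132 in siNCOA4 plus DFO. The lysosomal channel Mcoln1 had 0.72, and Gm19705 had 3.35 with DFO alone listed at 0.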

How the results depend on the processing

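Relative to siControl, between 1281 (pseudocount of 1) and 2053 genes (no filter) were called in place of 1718, and between 1598 and 1867 when 1 library was left out (943 to 1074 higher, 655 to 793 lower). By the adjusted p alone, leaving out 1 library gave 5117 to 5598 genes, 2653 to 2902 higher and 2420 to 2698 lower. The share of calls that were higher was 59.5% for FPKM as deposited, 67.1% when scaled without small RNAs and 52.7% with quantile normalization. Ncoa4 changed by -2.46 to -2.05 without 1 library.

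The comparison with DFO alone was less stable. With a pseudocount of 1, 125 genes were called in place of 228, and 33 of the 125 were higher. Calls of higher genes numbered 75 with a minimum of 2 FPKM, 187 when scaled without small RNAs and 68 with quantile normalization, against 121. By the adjusted p alone, scaling without small RNAs gave 1380 higher and 709 lower genes in place of 747 and 1230. Leaving out 1 library gave 169 to 282 calls (82 to 140 higher, 87 to 146 lower) and 1223 to 1890 genes by the adjusted p (452 to 707 higher, 771 to 1183 lower), with 1223 reached without DFO alone replicate 2 and 1313 without siNCOA4 plus DFO replicate 3. Relative to siNCOA4, 284 genes were called lower with a pseudocount of 1 in place of 435, and leaving out 1 library gave 1154 to 1467 calls (774 to 940 higher, 380 to 527 lower) and 4262 to 4996 genes by the adjusted p (2356 to 2668 higher, 1891 to 2328 lower). The causes of these shifts were not tested.

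With the replicate block, 1714, 221 and 1288 genes were called in the comparisons with siControl, DFO alone and siNCOA4, and the numbers share no known origin. Over the genes that the rule names, in the 3 comparisons, 235 of 10713 values under an alternative lost their call, 58 gained one and 0 reversed while called. Of 4888 counts of list members, 351 moved by over 1.5 times. FPKM holds no counts, so counting error at low levels is not known, and values under about 1 FPKM rest on few reads.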

Other observations

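Of 14 circadian clock genes tested, 4 were higher (28.6%) and 5 lower (35.7%) in siNCOA4 plus DFO than in siControl by the adjusted p, with 25.8% and 24.3% of all genes. Arntl, which encodes BMAL1, rose by 1.26 from 6.44 ± 1.72 to 15.3 ± 2.51 FPKM, while Dbp, an output factor of the clock, fell from 6.18, 5.94 and 5.29 to 0.961, 1.60 and 1.61 FPKM (-2.02, adjusted p = 6.19e-05) and Per3 fell by 1.42. Nr1d2, the relative of Nr1d1, fell by 0.61 and was below DFO alone by 0.84 (adjusted p = 5.77e-04). Of 16 genes of BMP and TGF-beta signalling, 6 were called higher and 3 lower, beside 8.91% and 6.06% of all genes. Smad7, an inhibitor of TGF-beta signalling, rose from 3.80, 4.12 and 3.05 to 26.7, 23.9 and 16.8 FPKM (2.57), and Id3, a target of BMP signalling, fell from 30.7, 41.8 and 34.0 to 5.84, 8.14 and 6.60 FPKM (-2.36). Smad6, which inhibits BMP signalling, fell by 1.97.

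Among 33 iron-dependent demethylases and dioxygenases, 18 were higher (54.5%) and 4 lower (12.1%) by the adjusted p, beside 25.8% and 24.3% of all genes. Those called were 5 higher and 1 lower, together 18.2%, beside 15.0% of all genes. Kdm3a, a histone demethylase, had 21.5, 20.3 and 18.8 FPKM in siControl and 60.1, 64.2 and 58.0 in siNCOA4 plus DFO (1.59, adjusted p = 1.55e-08). Of 79 small nucleolar and Cajal body RNAs, 13 were higher (16.5%, below the 25.8% of all genes) and none lower (23 higher when libraries were scaled without small RNAs), and in the comparison with DFO alone none passed. Their host and nuclear noncoding RNAs included Snhg1, which rose by 1.86, and Malat1, which rose by 1.24 from 2738 ± 362 to 6509 ± 1096 FPKM (0.64 with quantile normalization, not called).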
